A study of Mus musculus with 14 samples.

Results

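The 6 lung tumour libraries that had received the kinase inhibitor mobocertinib, alone or together with T-DM1, were compared as one inhibitor-exposed set with the 3 libraries that had received T-DM1 without the inhibitor. Members were taken by their treatment labels, and the set held 9 of the 14 libraries of the series. All 14 libraries were made from total RNA of snap-frozen lung tumour nodules of C57BL/6 mice of the genotype HER2 Exon20YVMA, an in-frame insertion in the kinase domain of the receptor HER2 (Erbb2). The groups compared were mobocertinib (TAK-788, 3 libraries), the combination of mobocertinib with T-DM1 (3 libraries) and T-DM1 (3 libraries), each given as a long-term treatment. By label the combination arm differed from T-DM1 in the inhibitor only, and the mobocertinib arm also in lacking T-DM1. The pooled contrast therefore mixes the presence of the inhibitor with the absence of T-DM1, which cannot be told apart in the mobocertinib arm. Vehicle (2 libraries) and nodules that had become resistant to mobocertinib given alone (3 libraries) entered the same model fit and are given beside the results. The sources used here give no dose, duration, age, sex, promoter or Cre. The title of each library carries a different number, but nothing says whether these stand for separate animals, so a p-value reflects the spread between libraries only, which may be technical.

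Mobocertinib is an irreversible inhibitor of the EGFR and HER2 kinases that was developed against exon 20 insertions. T-DM1 (trastuzumab emtansine) joins a HER2 antibody to a maytansine-type poison of microtubules, which it carries into the cell. Active HER2, usually paired with HER3 (Erbb3), signals through RAS to the kinase ERK and through PI3K to AKT. ERK induces its own feedback inhibitors, among them the dual-specificity phosphatases and the Sprouty and SPRED proteins, and AKT keeps the FOXO transcription factors out of the nucleus. The question addressed was which genes stood apart from T-DM1 in the same direction in both arms that contained the inhibitor.

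The 9 libraries held 20332008 to 31287261 counts each. The labels carry no replicate numbers, so the libraries of each group are numbered here in the order of their sample records. T-DM1 1 and T-DM1 2 held more RNA of Xist, made from the inactive X of females, than the other 7 libraries compared. They also held RNA of Ddx3y, a gene of the Y chromosome. Xist stood at 41.8, 20.6 and 0.511 CPM (counts scaled to the TMM-normalised library size, as for all gene levels below) in T-DM1 1, 2 and 3, and Ddx3y at 2.54, 6.25 and 20.7 CPM. In the 6 inhibitor libraries Xist ranged from 0 to 2.21 CPM, the highest in mobocertinib 2, and Ddx3y from 11.5 to 41.7 CPM. The resistant libraries held 177, 495 and 63.5 CPM of Xist and at most 0.218 CPM of Ddx3y. Main results are therefore also given against T-DM1 3 alone, an alternative chosen after seeing the data; the part of the mixed sex-linked RNA in them was not tested. The vehicle libraries stood apart in composition: ribosomal protein genes took 19.4 to 20.1% of their counts, against 3.38 to 7.19% in the other 12 libraries. Long mRNAs (threshold 5 kb) took 25.86 to 34.99% in the other 12 libraries and less in both vehicle libraries, down to 12.42%. Short mRNAs (threshold 1 kb) took 6.597 to 8.237% in vehicle, against 2.73 to 4.699%. Vehicle libraries also had fewer genes with a count, 20241 and 17279. Vehicle levels below, above all those of long genes, are therefore not directly comparable with the other groups.

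A gene was called when the Benjamini-Hochberg adjusted p of edgeR's quasi-likelihood test was below 0.05 over the 17933 genes tested. In the pooled comparison 21 genes fell in the inhibitor-containing arms (0.117% of genes tested) and 1 rose (0.00558%). Mobocertinib alone against T-DM1 gave 4 lower genes (0.0223%) and 1 higher gene (0.00558%). The combination against T-DM1 gave 0 (0%), with 915 genes (5.1%) at an unadjusted p below 0.05 and a smallest adjusted p of 0.201. No gene was therefore called in each arm separately by edgeR. DESeq2 called 62 genes in each arm, of which 56 were lower and 6 higher, and limma-voom called 0. With so few, alike genes were taken as those called in the pooled comparison and at least 2-fold in the same direction in each arm. This gave 21 genes, 20 lower (0.112% of genes tested) and 1 higher (0.00558%), and 20 of the 21 were among the 62 of DESeq2. The calls depended on single libraries: fits without 1 of the 9 libraries gave 4 to 62 pooled calls, as few as 4 without mobocertinib 3, combination 2 or combination 3, and as many as 62 without T-DM1 2. Against T-DM1 3 alone edgeR called 0 genes, with 542 at an unadjusted p below 0.05.

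Counts of list members below are read against the shares of all genes in the pooled comparison. At an unadjusted p below 0.05, 1269 genes (7.08%) were lower and 595 (3.32%) higher. DESeq2, which gave an adjusted p for 16739 genes, called 331 lower (1.98%) and 74 higher (0.442%). All 6 inhibitor libraries lay below all 3 T-DM1 libraries for 4.48% of genes and above them for 4.67%. Of the 17933 genes tested, 7565 were negative in both arms and 6770 positive in both. Both arms were set against the same 3 T-DM1 libraries, so their signs are not independent of each other.

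The 21 genes included 4 feedback inhibitors of ERK signalling, 4 genes of mitosis and the chemokine Cxcl3, and 12 were in none of the gene lists. The plot of levels by library shows that the 6 inhibitor libraries lay below the 3 T-DM1 libraries for 19 of the 20 lower genes, and above them for the higher gene, Atp7b. All 3 resistant libraries were below all 3 T-DM1 libraries for 20 of the 20. Both vehicle libraries were above all 6 inhibitor libraries for 12 of the 20 and below all 3 T-DM1 libraries for 11. These counts use the T-DM1 libraries that chose the genes and are a description. Shares over all genes were not computed for the resistant and vehicle counts, which are not read as a result about those groups. In bulk tissue fewer cells of a type and less RNA per cell cannot be told apart, and this holds for every gene below.

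**Figure D1:**
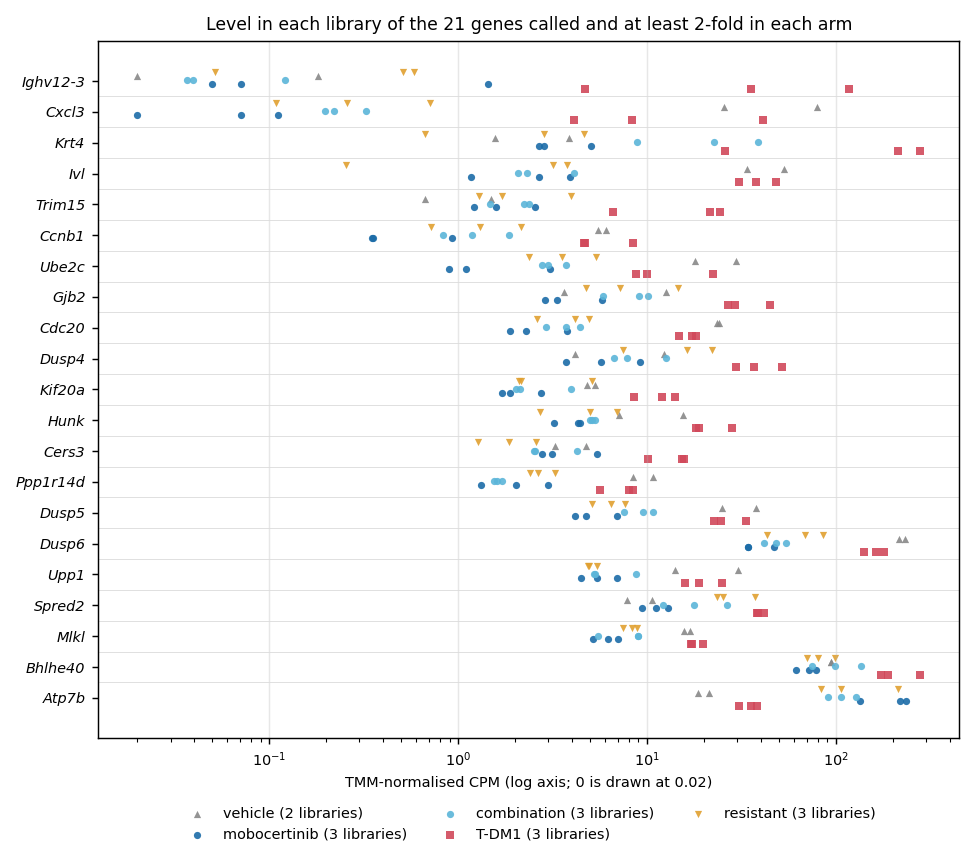
TMM-normalised CPM (log axis) of the 21 genes called in the pooled comparison and at least 2-fold in each arm, ordered by pooled log2 fold change. Each point is 1 library, and the 6 inhibitor libraries lie left of the 3 T-DM1 libraries for every lower gene except Krt4.

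Feedback inhibitors of ERK gave 2 of the 4 smallest p-values. Dusp6, the phosphatase that removes the activating phosphates of ERK in the cytoplasm (chr10:99263231-99267489, forward strand, mm10), stood at 34.3, 34.1 and 47.1 CPM in the mobocertinib libraries, 54.6, 48.2 and 41.6 in the combination libraries and 179.7, 141 and 162 in the T-DM1 libraries. The sets did not overlap, and the lowest T-DM1 library was above 2 times the level of every inhibitor library. Its pooled log2 fold change was -1.90 ± 0.20 (SE, 6 against 3 libraries, edgeR adjusted p 0.0047), with -2.06 in the mobocertinib arm and -1.74 in the combination arm. Against T-DM1 3 alone it was -1.92. Vehicle libraries held 217 and 232 CPM and resistant libraries 43.4, 85.4 and 68.5 CPM.

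Dusp5, the nuclear counterpart of that phosphatase (chr19:53529109-53542431), stood at 4.73, 6.94 and 4.16 CPM in the mobocertinib libraries, 10.7, 9.53 and 7.59 in the combination libraries and 22.6, 33.4 and 24.8 in the T-DM1 libraries. Again no inhibitor library reached a T-DM1 library. The change was -1.94 ± 0.24 (edgeR adjusted p 0.0087), although 22.1% of its exon length is shared with another annotated gene, whose reads may be counted in part. Dusp4, a nuclear MAP kinase phosphatase (chr8:34807297-34819894), stood at 3.74, 9.22 and 5.69 CPM in the mobocertinib libraries, 12.6, 6.66 and 7.85 in the combination libraries and 29.6, 52 and 36.8 in the T-DM1 libraries. Its change was -2.40 ± 0.40 (edgeR adjusted p 0.0437). For Dusp4 the vehicle libraries, at 12.3 and 4.16 CPM, lay within the inhibitor range. Spred2, which holds back RAF activation (chr11:19924375-20024026), stood at 9.37, 11.2 and 12.9 CPM in the mobocertinib libraries, 26.7, 12.1 and 17.6 in the combination libraries and 38.4, 41.5 and 38.9 in the T-DM1 libraries. Its T-DM1 libraries were close together, combination 1 was the highest inhibitor library and combination 2 lay within the mobocertinib range, and the change was -1.45 ± 0.24 (edgeR adjusted p 0.0408). Vehicle libraries held 10.6 and 7.88 CPM of Spred2, below every T-DM1 library.

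The list of ERK output genes held 19 members, all tested. The 4 above fell, none rose, and 10 of the 19 had all 6 inhibitor libraries below all 3 T-DM1 libraries, where 4.48% of all genes tested did. None lay wholly above, against 4.67% of all genes. The median log2 fold change of the list was -1.34 pooled, -1.28 in the mobocertinib arm and -1.09 in the combination arm, against -0.03 for all genes tested in the pooled comparison. Summed over the list, the level was 451, 539 and 434 CPM in the mobocertinib libraries, 698, 589 and 499 in the combination libraries and 887, 1262 and 1135 in the T-DM1 libraries. With T-DM1 3 as the only T-DM1 library the list median was -1.37. Members that did not pass the test were Spry4, a Sprouty inhibitor (-1.18 ± 0.27, edgeR adjusted p 0.114), the ETS factor Etv4 (-2.20 ± 0.50, adjusted p 0.115) and Phlda1 (-1.98 ± 0.51, adjusted p 0.166), each with no overlap between the sets. Etv5, another ETS factor, was at -1.34 ± 0.64 (edgeR adjusted p 0.502), and its libraries overlapped, with 138 CPM in T-DM1 2 and 18.2 in T-DM1 1. Spry1 and Dusp7 gave pooled values of -0.17 and 0.39.

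Ligands of the receptor family had negative values, but none was called. Of 14 receptors and ligands 13 were tested, since Erbb4 was too low, and 0 were called by edgeR, with 5 lower at an unadjusted p below 0.05 (7.08% of all genes) and 3 called lower by DESeq2 (1.98% of all genes). The 5 were also those whose libraries did not overlap, as for 4.48% of all genes: Areg (amphiregulin), Ereg (epiregulin), Hbegf, Btc and Epgn, all ligands of EGFR. Areg stood at 22.5, 34.1 and 11.2 CPM in the mobocertinib libraries, 41.8, 51 and 36.4 in the combination libraries and 168, 208 and 215 in the T-DM1 libraries, a pooled change of -2.66 ± 0.50 with an edgeR adjusted p of 0.0645. For Areg too the lowest T-DM1 library was above 3 times the highest inhibitor library. Ereg stood at 13.3, 10.8 and 6.22 CPM in the mobocertinib libraries, 29.3, 32.6 and 18.2 in the combination libraries and 86.1, 62.7 and 132 in the T-DM1 libraries, with -2.51 ± 0.50 and an edgeR adjusted p of 0.0717. The receptors themselves overlapped between the sets: mouse Erbb2 was at 0.33 ± 0.36, Erbb3 at 0.55 ± 0.38 and Egfr at -0.50 ± 0.45, with edgeR adjusted p-values of 0.83, 0.691 and 0.783. Nrg1, the neuregulin ligand of HER3, was at -0.08 ± 0.49 (edgeR adjusted p 0.979). Reads of a human HER2 transgene, if one was used, have no entry of their own in the count table.

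Mitosis and G2/M was the pathway list with the lowest median of the 31. Cdc20, the activator of the anaphase-promoting complex (chr4:118432901-118437352), stood at 2.29, 3.76 and 1.88 CPM in the mobocertinib libraries, 4.42, 2.91 and 3.72 in the combination libraries and 18.2, 17.3 and 14.8 in the T-DM1 libraries. Every T-DM1 library was above 3 times the highest inhibitor library. The change was -2.42 ± 0.27 (edgeR adjusted p 0.0047), -2.66 with mobocertinib, -2.19 with the combination and -2.25 against T-DM1 3 alone. Vehicle libraries held 24.2 and 23.3 CPM, above every T-DM1 library, and resistant libraries 4.91, 4.15 and 2.62 CPM. Ccnb1, the cyclin B1 that drives entry into mitosis with CDK1 (chr13:100778650-100786570), stood at 0.349, 0.922 and 0.355 CPM in the mobocertinib libraries, 1.87, 0.827 and 1.18 in the combination libraries and 8.4, 4.64 and 4.67 in the T-DM1 libraries. Its change was -2.81 ± 0.46 (edgeR adjusted p 0.0408). Ube2c, the ubiquitin-conjugating enzyme of the same complex as Cdc20 (chr2:164769898-164778822), stood at 0.897, 3.06 and 1.1 CPM in the mobocertinib libraries, 3.73, 2.8 and 2.98 in the combination libraries and 22.4, 8.73 and 9.98 in the T-DM1 libraries, a change of -2.56 ± 0.43 (edgeR adjusted p 0.0408). T-DM1 1 held more than 2 times the Ube2c of the other T-DM1 libraries. Kif20a, a kinesin of cytokinesis on chromosome 18, changed by -2.27 ± 0.37 (edgeR adjusted p 0.0402). Exon sequence shared with other annotated genes makes up 22.8% of Ube2c and 29.3% of Kif20a.

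All 40 genes of the list of mitosis and G2/M were tested and all 40 had negative values in both arms. The 4 above fell, 39 of the 40 were lower at an unadjusted p below 0.05 (7.08% of all genes), and DESeq2 called 33 lower (1.98%). The 6 inhibitor libraries lay below the 3 T-DM1 libraries for 38 of the 40, again against 4.48% of all genes, with Anln and Ccnf the exceptions. Pooled values ran from -2.81 to -0.82, with a median of -1.99 (-2.35 with mobocertinib, -1.67 with the combination). Mki67, the proliferation marker Ki-67, stood at 1.54, 6.97 and 2.24 CPM in the mobocertinib libraries, 11.1, 5.32 and 6.34 in the combination libraries and 38.5, 20.8 and 23.9 in the T-DM1 libraries, with -2.41 ± 0.48 and an edgeR adjusted p of 0.0732. Top2a, the topoisomerase of dividing cells, was at -1.92 ± 0.45 (edgeR adjusted p 0.125). Neither passed the test.

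The summed level of the 40 genes was 56, 133 and 62.8 CPM in the mobocertinib libraries, 161, 105 and 113 in the combination libraries and 533, 314 and 318 in the T-DM1 libraries. The sets did not overlap, and mobocertinib 1 and 3 were the lowest. Vehicle libraries held 428 and 376 CPM, inside the T-DM1 range, and resistant libraries 154, 231 and 114 CPM. T-DM1 1 was the highest. Against T-DM1 3 alone the list median was -1.74.

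Promoters of the mitosis genes are shown because the members had negative values together. Such promoters are known for 2 elements, the CCAAT box bound by NF-Y and the CHR element (TTTGAA) bound by cell cycle regulatory complexes. Sequences are the 160 bases before the RefSeq start (GRCm38.p6), 5′ to 3′ on the strand of the gene, with every CCAAT or TTTGAA on either strand in capitals. Dusp6 is printed for contrast. Positions are chr4:118437344-118437503 (reverse strand) for Cdc20, chr13:100786487-100786646 (reverse) for Ccnb1, chr2:164769769-164769928 (forward) for Ube2c, chr9:70421555-70421714 (reverse) for Ccnb2 and chr10:99263071-99263230 (forward) for Dusp6.
Cdc20: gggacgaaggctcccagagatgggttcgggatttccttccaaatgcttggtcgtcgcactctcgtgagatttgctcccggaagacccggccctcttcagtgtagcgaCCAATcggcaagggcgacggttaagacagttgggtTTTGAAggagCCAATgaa
Ccnb1: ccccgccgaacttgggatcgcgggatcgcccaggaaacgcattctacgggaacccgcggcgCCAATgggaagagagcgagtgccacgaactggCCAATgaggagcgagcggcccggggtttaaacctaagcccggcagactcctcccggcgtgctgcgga
Ube2c: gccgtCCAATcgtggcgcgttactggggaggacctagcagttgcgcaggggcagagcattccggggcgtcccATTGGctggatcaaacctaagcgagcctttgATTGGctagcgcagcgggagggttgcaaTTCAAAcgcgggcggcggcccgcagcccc
Ccnb2: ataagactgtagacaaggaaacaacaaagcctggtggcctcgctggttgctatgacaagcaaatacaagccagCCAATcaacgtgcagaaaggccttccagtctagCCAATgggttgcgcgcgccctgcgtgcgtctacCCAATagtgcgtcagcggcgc
Dusp6: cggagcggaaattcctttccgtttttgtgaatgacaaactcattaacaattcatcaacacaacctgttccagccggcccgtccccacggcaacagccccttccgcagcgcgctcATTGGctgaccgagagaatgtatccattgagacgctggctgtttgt
Within these 160 bases CCAAT was matched 2 times in Cdc20, 2 times in Ccnb1, 3 times in Ube2c, 3 times in Ccnb2 and 1 time in Dusp6, and TTTGAA 1 time each in Cdc20 and Ube2c. In Ccnb2 TTTGAA lay outside these bases, at -167 to -162 and at 5 to 10 from the start. These matches are inside the 300 bases counted below, and Ube2c also held CCAAT farther upstream. Ccnb2, cyclin B2, was next in line below the threshold (-2.72 ± 0.47, edgeR adjusted p 0.0514). No sequence is given for Kif20a and Dusp4.

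Over the 300 bases from 250 before to 50 after the start, 33 of the 40 mitosis genes were matched to a RefSeq promoter. CCAAT was found in 27 of the 33 (81.8%), against 41.1% of the 27025 genes with a promoter and 42.1% of those tested here. TTTGAA was found in 25 of the 33 (75.8%), against 20.2% and 15.1%. Of the 13 ERK output genes matched, 7 (53.8%) held CCAAT and 1 (7.69%) TTTGAA. The E2F element TTCCCGC was in 1 mitosis promoter (3.03%) and in 5.29% of all genes and 8.95% of those tested. The ETS element CCGGAAGT was in 3 (9.09%), against 4.31% and 7.72%, and the AP-1 element TGANTCA in 0, against 8.97% and 7.13%. The CRE TGACGTCA was in 1 (3.03%), against 2.03% and 3.24%, and the forkhead element GTAAACA in 1 (3.03%), against 4.05% and 3.27%. Of the 21 alike genes 16 were matched to a promoter. CCAAT was in 6 of these (37.5%), TTTGAA in 2 (12.5%), TGANTCA in 3 (18.8%) and the other elements in 0. Motifs were searched on both strands and may overlap, and a match describes the letters only.

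Genes of DNA replication had negative values closer to 0. In that list of 40, 0 were called by edgeR, 18 were lower at an unadjusted p below 0.05 (7.08% of all genes), 7 were called lower by DESeq2 (1.98% of all genes), and 16 lay wholly below T-DM1 (4.48% of all genes). The median was -0.53. Uhrf1, which recruits DNA methyltransferase behind the fork, had the smallest p (-2.28 ± 0.45, edgeR adjusted p 0.0717), and thymidine kinase Tk1 followed (-2.30 ± 0.50, adjusted p 0.0956). Pcna, the sliding clamp of the polymerase, was at -0.04 ± 0.18. Ccnd1, the cyclin D1 of G1, stood at 241, 172 and 179 CPM in the mobocertinib libraries, 410.3, 217 and 413 in the combination libraries and 893, 637 and 752 in the T-DM1 libraries, a change of -1.54 ± 0.36 (edgeR adjusted p 0.12), and 23.4% of its exon length is shared with another gene. Combination 1 and 3 held the highest Ccnd1 of the inhibitor libraries. Myc was at -1.41 ± 0.37 (edgeR adjusted p 0.168).

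**Figure D2:**
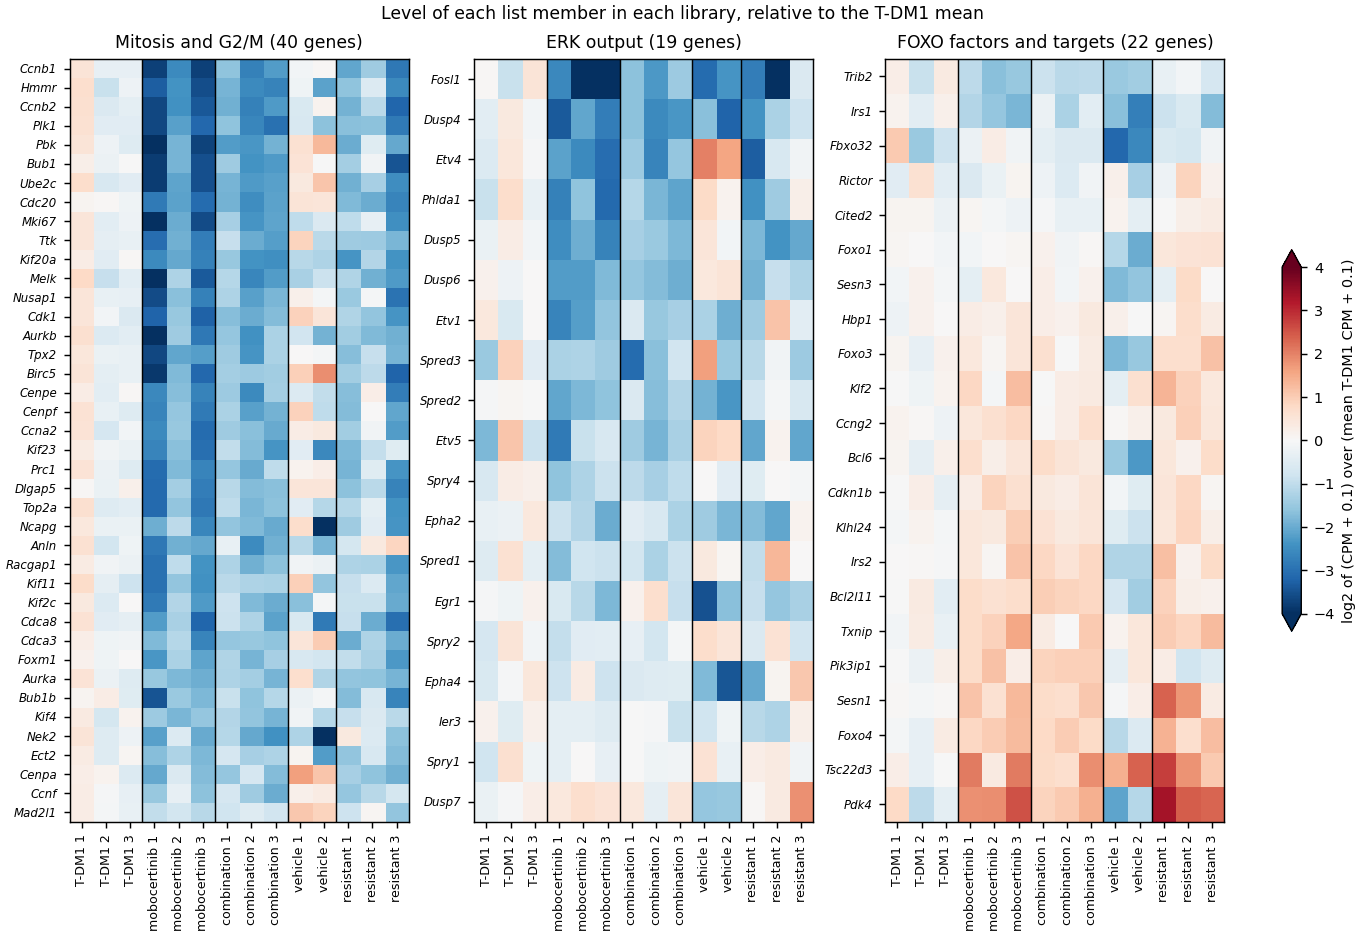
Level of each member of 3 gene lists in every library, as log2 of (CPM + 0.1) over (mean T-DM1 CPM + 0.1), with columns grouped by treatment. The mitosis panel is blue across all 6 inhibitor columns, the ERK panel in its upper rows, and the lower rows of the FOXO panel are red in the same columns.

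Of the 12 genes in no list, Ivl, the involucrin precursor of the cornified envelope (chr3:92570902-92573735), stood at 2.69, 3.91 and 1.17 CPM in the mobocertinib libraries, 2.31, 2.09 and 4.09 in the combination libraries and 30.9, 48.4 and 37.7 in the T-DM1 libraries. Each T-DM1 library was above 7 times the highest inhibitor library. The change was -3.85 ± 0.56 (edgeR adjusted p 0.0291), and vehicle libraries, at 53.2 and 33.9 CPM, were in or near the T-DM1 range. Krt4, a keratin of mucosal stratified epithelium, stood at 5.03, 2.84 and 2.67 CPM in the mobocertinib libraries, 38.6, 8.86 and 22.7 in the combination libraries and 279, 25.8 and 214 in the T-DM1 libraries, a change of -4.26 ± 0.68 (edgeR adjusted p 0.0402). Krt4 was the 1 lower gene whose libraries overlapped, since T-DM1 2 lay below combination 1. Cers3, the ceramide synthase of the skin barrier (chr7:66743504-66823691), stood at 5.43, 3.14 and 2.77 CPM in the mobocertinib libraries, 2.52, 2.56 and 4.27 in the combination libraries and 15.4, 15.7 and 10.1 in the T-DM1 libraries, a change of -1.998 ± 0.34 (edgeR adjusted p 0.045). Gjb2, the gap junction protein connexin 26 (chr14:57098600-57104702), stood at 2.89, 5.76 and 3.34 CPM in the mobocertinib libraries, 10.1, 5.87 and 9.06 in the combination libraries and 44.7, 26.8 and 29.3 in the T-DM1 libraries, a change of -2.54 ± 0.41 (edgeR adjusted p 0.0402).

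Markers of basal and squamous cells were higher in 2 of the 3 T-DM1 libraries. The list had 11 markers, of which Sprr1b was at 0 in all 9 libraries and 10 were tested. EdgeR called 0, 5 were lower at an unadjusted p below 0.05 (7.08% of all genes) and DESeq2 called 2 lower (1.98%). Summed over the 10, the level was 174, 151 and 43.2 CPM in the mobocertinib libraries, 380.1, 215 and 429.8 in the combination libraries and 1148, 187 and 1158 in the T-DM1 libraries. T-DM1 1 and 3 were high and T-DM1 2 was not, and 2 of the 10 genes had sets without overlap, where 4.48% of all genes lay wholly below T-DM1. The median was -1.90, with -3.06 in the mobocertinib arm and -0.81 in the combination arm. The defining markers Krt5 and Trp63 were at -2.37 ± 0.79 and -1.47 ± 0.70 (edgeR adjusted p 0.289 and 0.509). Krt6a was at -4.67 ± 0.92 (adjusted p 0.0717) and Sprr1a at -2.12 ± 0.47 (adjusted p 0.105). The part of these cells in the changes of Ivl, Krt4, Cers3 and Gjb2 was not tested. In T-DM1 2, the T-DM1 library with the lowest summed markers, Krt4 and Gjb2 were at their lowest of the 3 T-DM1 libraries, and Ivl and Cers3 at their highest.

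Cxcl3, a chemokine that attracts neutrophils through the receptor CXCR2 (chr5:90786103-90789600), stood at 0, 0.111 and 0.0711 CPM in the mobocertinib libraries, 0.325, 0.197 and 0.221 in the combination libraries and 8.36, 40.9 and 4.09 in the T-DM1 libraries. The 3 mobocertinib libraries together held 5 counts of it, so the fitted change of -7.07 ± 0.79 (edgeR adjusted p 0.0047) rests on very low levels. Against T-DM1 3 alone it was -4.95. Vehicle libraries held 79.3 and 25.6 CPM. Of 27 chemokines tested Cxcl3 was the 1 called by edgeR, and DESeq2 called 5 lower (1.98% of all genes). At an unadjusted p below 0.05, 8 were lower (7.08% of all genes). Of the 27, 2 had sets without overlap, which is 7.41% against 4.48% of all genes. The 14 neutrophil markers had a median of -0.12. Of them 7 were negative, and their summed level ranged from 5868.7 to 45364.2 CPM in the inhibitor libraries and from 6346.0 to 33761.0 in T-DM1. Even so, 3 of the 14 lay wholly below T-DM1 (21.4%, against 4.48% of all genes). None was called by edgeR, and DESeq2 called 2 lower (1.98% of all genes). Cd177, a neutrophil surface protein, was the marker nearest to the threshold (-4.42 ± 0.76, edgeR adjusted p 0.0514). DESeq2 called Cd177 lower in each arm.

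The other lower genes were of mixed roles, and several were named after their values were seen. Hunk, a serine/threonine kinase found in Neu-driven mammary tumours (chr16:90386013-90499553), stood at 4.33, 3.21 and 4.44 CPM in the mobocertinib libraries, 5.12, 5 and 5.3 in the combination libraries and 18.9, 28.1 and 18.1 in the T-DM1 libraries. The inhibitor libraries were close to each other and far below T-DM1, with -2.26 ± 0.31 (edgeR adjusted p 0.0242). Trim15, of the TRIM family of ubiquitin ligases (chr17:36860691-36867210), stood at 1.59, 2.55 and 1.21 CPM in the mobocertinib libraries, 2.23, 2.36 and 1.47 in the combination libraries and 24.3, 6.59 and 21.5 in the T-DM1 libraries. Its change was -3.19 ± 0.47 (edgeR adjusted p 0.0325). Vehicle libraries, which differed in composition, held 1.5 and 0.669 CPM. Resistant libraries held 1.71, 1.287 and 3.963 CPM, below every T-DM1 library. Ppp1r14d, an inhibitor of protein phosphatase 1 (chr2:119218119-119229906), stood at 2.99, 1.33 and 2.03 CPM in the mobocertinib libraries, 1.71, 1.61 and 1.55 in the combination libraries and 8.44, 5.6 and 8.05 in the T-DM1 libraries, with -1.99 ± 0.31 (edgeR adjusted p 0.0395). Mlkl, the executioner of necroptosis, ranged over 5.18 to 8.99 CPM in the inhibitor libraries and 17.1 to 19.9 in T-DM1 (-1.38 ± 0.21, adjusted p 0.0395 by edgeR). Upp1, a uridine phosphorylase, ranged over 4.48 to 8.7 and 15.9 to 25.1 CPM (-1.73 ± 0.28, adjusted p 0.0402). Bhlhe40, a transcriptional repressor, ranged over 61.8 to 136 and 173 to 279.7 CPM (-1.32 ± 0.21, adjusted p 0.0402).

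Ighv12-3, an immunoglobulin heavy chain variable segment, stood at 0.0498, 1.44 and 0.0711 CPM in the mobocertinib libraries, 0.122, 0.0394 and 0.0368 in the combination libraries and 35.7, 117 and 4.67 in the T-DM1 libraries. All 3 T-DM1 libraries held it and mobocertinib 2 was the highest of the others, with a fitted change of -8.08 ± 1.12 (edgeR adjusted p 0.0242). Such segments share sequence with their relatives, so their reads are uncertain, and a single antibody clone can carry one. Markers of B and plasma cells were also lower in value. All 17 were negative in both arms with a median of -2.10. Of them 0 were called by edgeR or DESeq2 and 8 were lower at an unadjusted p below 0.05 (7.08% of all genes). Their sum was 2661, 2092 and 3059.5 CPM in the mobocertinib libraries, 9279, 2211 and 1574 in the combination libraries and 39228, 4617 and 2609.5 in the T-DM1 libraries. T-DM1 1 was by far the highest, and against T-DM1 3 alone the median was 1.28.

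The 1 gene that rose was Atp7b, a copper-transporting ATPase (chr8:21992785-22060305). It stood at 234, 134 and 219.8 CPM in the mobocertinib libraries, 91.3, 107 and 128 in the combination libraries and 30.7, 38.2 and 35.5 in the T-DM1 libraries. Every inhibitor library was above 2 times the highest T-DM1 library. The change was 2.07 ± 0.31 (edgeR adjusted p 0.0325), 2.49 in the mobocertinib arm, 1.64 in the combination arm and 2.04 against T-DM1 3 alone. Vehicle libraries held 18.6 and 21.3 CPM, below T-DM1, and resistant libraries 106, 83.3 and 214 CPM. The exon length of Atp7b is 6505 bases, and long mRNAs took a smaller share of the vehicle libraries, so its vehicle level is not directly comparable.

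FOXO factors and targets were the pathway list with the highest median. Of 22 tested, 0 were called by edgeR, 12 were higher and 2 lower at an unadjusted p below 0.05 (3.32% and 7.08% of all genes), and DESeq2 called 2 higher and 1 lower (0.442% and 1.98%). In 11 of the 22 all 6 inhibitor libraries lay above all 3 T-DM1 libraries, where 4.67% of all genes tested did. The median was 0.51 (0.63 with mobocertinib, 0.39 with the combination), and 0.60 against T-DM1 3 alone. Summed over the 22, the level was 2475, 2459 and 3414 CPM in the mobocertinib libraries and 2113, 1788 and 2678 in the combination libraries. The T-DM1 libraries held 1828, 1723 and 1499 CPM, so the sums overlapped, with combination 2 below T-DM1 1. Vehicle libraries held 1422 and 1680 CPM and resistant libraries 3058, 2766 and 2944 CPM. Foxo4, one of the factors, stood at 53.4, 60.6 and 71.5 CPM in the mobocertinib libraries, 51.9, 59.97 and 50.4 in the combination libraries and 28.1, 23.8 and 37.4 in the T-DM1 libraries (0.96 ± 0.22, edgeR adjusted p 0.116). Irs2, an insulin receptor substrate, was at 0.68 ± 0.25 and the repressor Bcl6 at 0.52 ± 0.22, with edgeR adjusted p-values of 0.343 and 0.433. Trib2, the member with the smallest p, went the other way at -1.19 ± 0.25 (adjusted p 0.0863).

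**Figure D3:**
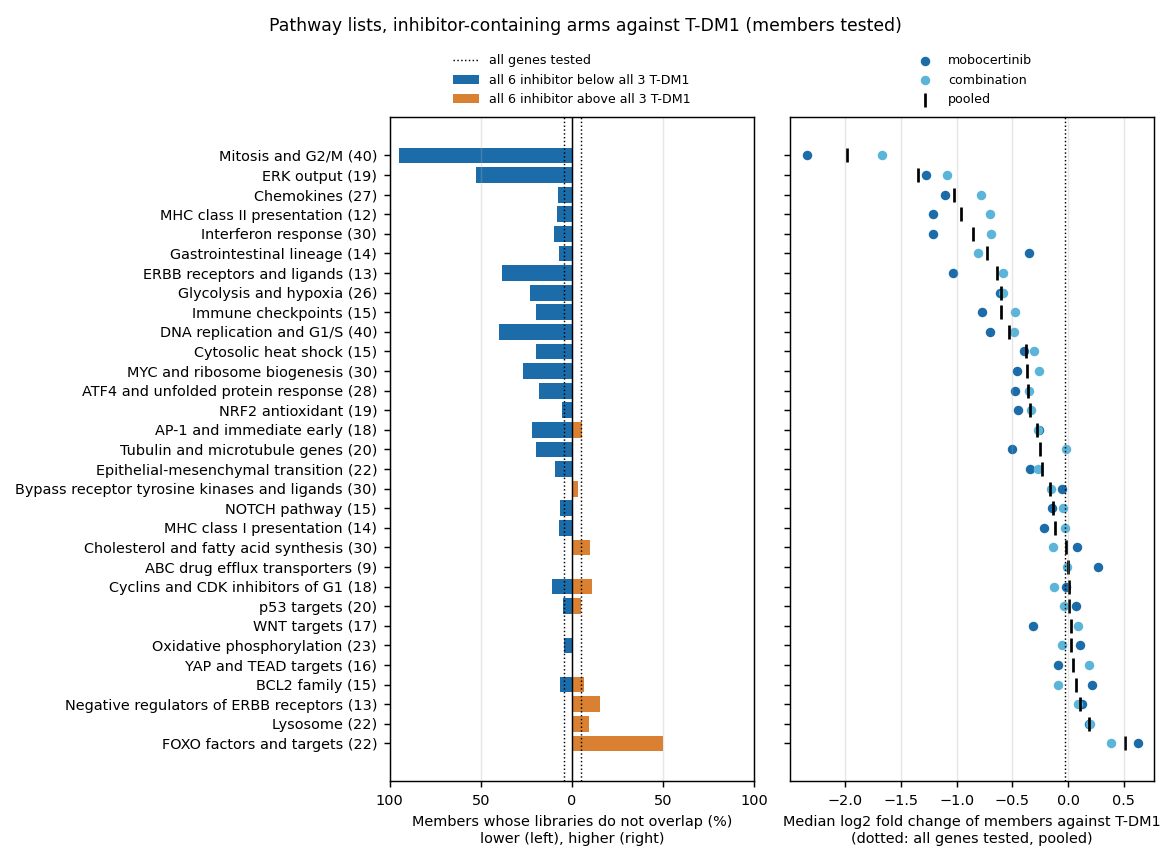
For each of 31 pathway lists (members tested in brackets), the percent of members whose 6 inhibitor libraries lie wholly below or above the 3 T-DM1 libraries (left panel, dotted lines at 4.48% and 4.67% for all genes) and the median log2 fold change (right panel). The mitosis list reaches 95% lower, ERK output 52.6% lower and FOXO 50% higher.

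The interferon, MHC class II, glycolysis and hypoxia, and tubulin lists were lower in median with 0 calls by edgeR. MHC class I genes had a median of -0.12 and p53 targets of 0.007, against -0.03 for all genes tested. All 30 interferon response genes were negative in both arms, with a median of -0.86, 0 called by edgeR, 6 called by DESeq2 (1.98% of all genes called lower), 13 lower at an unadjusted p below 0.05 (7.08% of all genes), and 3 wholly below T-DM1 (4.48% of all genes). Isg15, a ubiquitin-like interferon product, stood at 15.1, 14 and 3.73 CPM in the mobocertinib libraries, 15.3, 14.2 and 22.2 in the combination libraries and 119.6, 25.1 and 66.3 in the T-DM1 libraries (-2.36 ± 0.48, edgeR adjusted p 0.0778). T-DM1 2 was the lowest T-DM1 library for Isg15. Summed over the 30 interferon genes, the level was 515, 854 and 447 CPM in the mobocertinib libraries and 819, 726 and 743 in the combination libraries. In T-DM1 1, 2 and 3 the sum was 1795, 630 and 1297.5 CPM, so T-DM1 2 lay within the inhibitor range. All 12 MHC class II genes were negative in both arms, with a median of -0.97 that became -0.15 against T-DM1 3 alone. Of these genes 0 were called by edgeR or DESeq2 and 3 were lower at an unadjusted p below 0.05 (7.08% of all genes). The 26 genes of glycolysis and hypoxia had a median of -0.61, and -0.69 against T-DM1 3 alone, with 23 negative in both arms. EdgeR called 0, DESeq2 called 2 lower (1.98% of all genes) and 14 were lower at an unadjusted p below 0.05 (7.08%). Of the 26, 6 (23.1%) lay wholly below T-DM1, against 4.48% of all genes. Their sum was 3850.1 to 6673.5 CPM in the inhibitor libraries and 7134.0, 7454.4 and 7721.7 in T-DM1 1, 2 and 3, without overlap. Their Adm (adrenomedullin) stood at 8.82, 5.13 and 5.69 CPM in the mobocertinib libraries, 9.13, 5.12 and 6.67 in the combination libraries and 96.4, 5.91 and 26.4 in the T-DM1 libraries, so T-DM1 1 and 3 were high and T-DM1 2 was not. The tubulin list, of interest because emtansine binds tubulin, had a median of -0.25 and 0 calls by edgeR. At an unadjusted p below 0.05, 5 of its members were lower and 1 higher (7.08% and 3.32% of all genes). In that list Tubb6 was at -1.47 ± 0.29 (edgeR adjusted p 0.0717).

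Markers of epithelium were lower in value beside the ERK and mitosis genes. Of the 10 in the list, 8 were negative in both arms, 0 were called by edgeR or DESeq2, 3 were lower at an unadjusted p below 0.05 (7.08% of all genes), and Krt8 and Cldn7 lay wholly below T-DM1. Krt8, a keratin of simple epithelium, stood at 389, 427 and 188 CPM in the mobocertinib libraries, 584, 334 and 507 in the combination libraries and 848, 1242 and 984 in the T-DM1 libraries (-1.36 ± 0.44, edgeR adjusted p 0.264). Summed over the 10, the level was 5486, 4956 and 2532 CPM in the mobocertinib libraries, 6523, 4898 and 6008 in the combination libraries and 9270.4, 6799 and 9180.5 in the T-DM1 libraries, with no overlap between the sets. The vehicle libraries, at 5288 and 5566 CPM, lay within the inhibitor range. The list median was -0.72, and -0.59 against T-DM1 3 alone. The part of epithelial content in the ERK and mitosis changes was not tested.

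Markers of lung cell types had no calls. Sftpc, the surfactant protein of alveolar type 2 cells, was at -0.22 ± 0.78, Ager, of type 1 cells, at -0.02 ± 0.59, and Scgb1a1, of club cells, at 0.10 ± 0.65, with edgeR adjusted p-values of 0.962, 0.994 and 0.98. Against T-DM1 3 alone their signs turned, to 0.78, 0.27 and -0.59. Their libraries overlapped, as did every member of the type 2 and club cell lists. Of the 12 type 1 markers, Aqp5, a water channel, lay wholly below T-DM1 (-1.15 ± 0.39, edgeR adjusted p 0.285) and Cav1, caveolin 1, wholly above (1.02 ± 0.32, adjusted p 0.247). The summed alveolar type 2 markers stood at 12775, 97367 and 26228 CPM in T-DM1 1, 2 and 3, the widest spread of any of the 3 groups compared. Adipocyte markers were high in T-DM1 1 alone, at 289.9, 1.3 and 0.7 CPM over 4 genes in T-DM1 1, 2 and 3. The checkpoint ligand Cd274 (PD-L1) was at -0.51 ± 0.39 and Cd8a, of cytotoxic T cells, at -0.26 ± 0.88 (edgeR adjusted p 0.732 and 0.96). The part of cell makeup in the pooled calls was not tested.

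**Figure D4:**
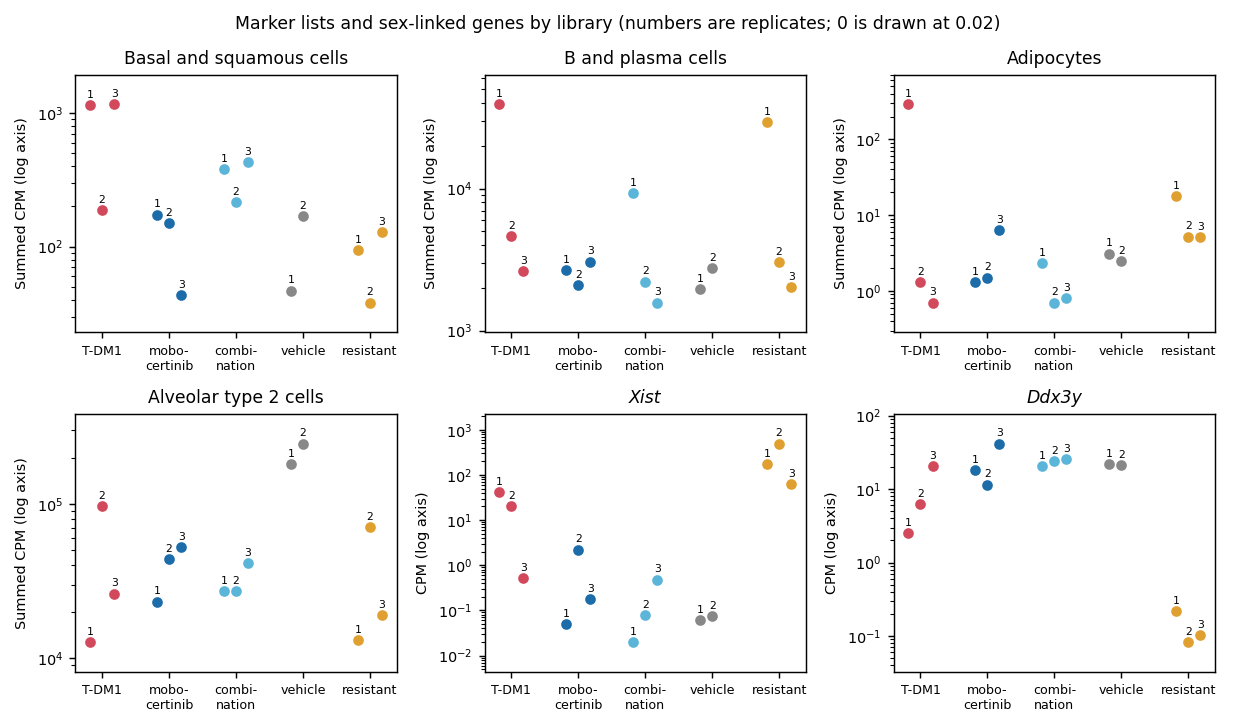
Summed TMM-normalised CPM of 4 marker lists, and CPM of Xist and Ddx3y, in each library (log axes, numbers give the replicate). T-DM1 1 stands high in the B and plasma cell and adipocyte panels, T-DM1 2 low in the squamous panel, and both hold more Xist than the other 7 libraries compared.

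The arms themselves were compared directly. Combination against mobocertinib gave 0 calls by edgeR (0%), with 262 genes (1.46%) at an unadjusted p below 0.05, 0 calls by limma-voom and 1 by DESeq2. For Dusp6 the difference of combination minus mobocertinib was 0.32 (95% interval -0.21 to 0.85) and for Cdc20 0.48 (-0.24 to 1.20). Among the 21 genes the change from T-DM1 was smaller in size in the combination arm for 18, as the plot of the change in each arm shows. The unadjusted interval left out 0 for 5 of them: Dusp5 (0.81, 0.19 to 1.44), Spred2 (0.75, 0.13 to 1.38), Krt4 (2.74, 0.90 to 4.58), Ccnb1 and Atp7b (-0.85, -1.55 to -0.15). None of these differences passed the adjusted test, and the intervals are too wide to show that the arms were alike in size.

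**Figure D5:**
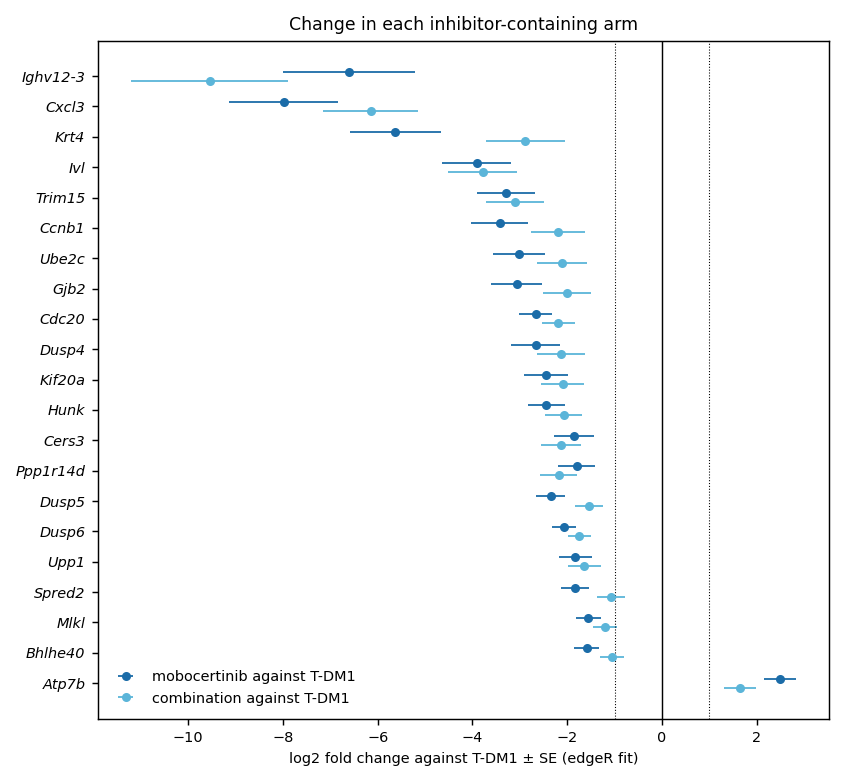
log2 fold change against T-DM1 ± SE of the 21 genes in the mobocertinib arm (dark) and the combination arm (light), from 1 edgeR fit in which both arms share the 3 T-DM1 libraries. Dotted lines mark a 2-fold change, and Krt4 shows the arms 2.74 apart.

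At the threshold, Cers3 was the last gene inside (edgeR adjusted p 0.045) and Cd177 and Ccnb2 the first outside (both 0.0514). Slc20a1, a sodium-phosphate cotransporter, was called in the pooled comparison (-1.01 ± 0.17, edgeR adjusted p 0.0408) but missed the 2-fold rule in the combination arm, at -0.96. Of the 21, Cdc20, Cxcl3, Dusp5 and Dusp6 were called in all 9 fits that left out 1 library. Of the remaining 17, Ighv12-3 was called in 4 of the 9, Cers3 in 0 and the rest in 1 or 2.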

How the data were processed

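The authors deposited whole-number counts for 55291 gene symbols and a separate table of TPM for 47606 genes, which the authors scaled for transcript length and library size. STAR, RSEM and mm10 are named, without roles or versions, per the submitters' processing notes. No source used here gives the annotation or strand setting. Libraries of a group differed beyond sampling noise in all 9 pairs compared (chi-square per degree of freedom 87.9 to 504), so none was treated as a repeat deposit of another; this does not show separate animals. Genes passing filterByExpr were fitted in edgeR 4.0.16 (R 4.3.3; TMM, robust quasi-likelihood F-test), in 1 fit over 14 libraries and 5 group means with 9 residual degrees of freedom. The pooled contrast is the mean of both inhibitor arms minus T-DM1. The SE is the size of the log2 fold change divided by the square root of F. Alternatives used DESeq2 1.42.0 and limma 3.58.1 (voom on counts; trend on log2 of TPM + 1 or + 0.1). The code was tested on simulated data.

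The members, gene lists and promoter motifs were chosen with earlier results of these data known. The rule named alike genes that did not overlap and averaged at least 1 on the log2 CPM scale (13 genes), alike or lowest-p members of each list described, and a fixed panel. Mlkl, Upp1, Bhlhe40, Krt4, Ighv12-3, Slc20a1, Ccnb2 and further list members given to show a range were named after their values were seen. The planned demand for a call in each arm gave under 50 genes, so the planned 2-fold rule was used. Positions and shared exon length are from GENCODE M21.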

Additional observations from a re-analysis of the deposited data

Results flagged for a closer look

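In 2 of 43 genes examined, 1 inhibitor library stood far from the other 5 of its set, by Dixon's gap test at 95%, which chance alone passes in about 1 in 20 groups. Ighv12-3 was at 1.44 CPM in mobocertinib 2 and at 0.0368 to 0.122 CPM in the other 5. Xist was at 2.21 CPM in the same library and at 0 to 0.479 CPM in the other 5. Mobocertinib 2 also held Y-linked RNA (Ddx3y at 11.5 CPM).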

How the results depend on the processing

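The calls depended on the fit. Against 22 pooled calls and 21 genes that were also 2-fold in each arm, counts were 54 and 53 with no filter, 44 and 43 with limma-voom, 405 and 305 with DESeq2, 5 and 5 with glmTreat against 1.5-fold, 6 and 6 on log2(TPM + 0.1), 50 and 43 with the 9 compared libraries alone, and 0 and 0 with T-DM1 3 as the only T-DM1 library, a fit chosen after seeing the data in which T-DM1 3 is assumed to vary like the other groups. Mobocertinib alone, with 5 calls, gave 11 with no filter, 428 with DESeq2, 12 on log2(TPM + 1), 14 with the 9 libraries, 2 without both vehicle libraries and 0 with T-DM1 3 alone. The combination gave 69 calls with DESeq2 in place of 0, the 2 arms against each other 1, and calls in each arm 62; the 2-fold rule in place of calls in each arm gave 21. Leaving out 1 library gave 4 to 62 pooled calls, 0 to 25 for mobocertinib and 4 to 61 genes by the 2-fold rule. Other scaling factors, a CPM filter, no robust estimation and log2(TPM + 1) gave 22 to 25 pooled calls. With both arms fitted as 1 group of 6, in place of the mean of 2 arms, 14 of the 21 genes were called. The cause of these differences was not tested. The sign of the 21 genes says little about stability, since they were chosen as at least 2-fold in these libraries. Of 133 genes examined, 19 had another sign in at least 1 alternative and 15 against T-DM1 3 alone, Sftpc and Ager among them. Of 51 list medians, 27 had another sign in at least 1 alternative and 15 against T-DM1 3 alone, of which 9 had a pooled median below 0.5 in size. The other 6, with their values against T-DM1 3, were B and plasma cells (1.28), adipocytes (2.99), cardiac muscle (2.92), T cells (0.36), alveolar type 2 cells (0.29) and gastrointestinal genes (0.06). Mitosis stayed between -2.25 and -1.20 and ERK output between -1.47 and -0.89 over all fits. No paired analysis was possible because the labels carry no replicate numbers. With 3 libraries in a group and genes such as Cxcl3 at 0 to 3 counts in some libraries, low genes are imprecise.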
